A study of Mus musculus with 59 samples.

Results

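The Notch pathway and the bHLH factors around it were followed through 9 genes on mouse exon arrays: the receptors Notch1 and Notch2, the ligands Dll1, Dll3 and Jag1, the repressors Hes1 and Hes5, and the neurogenic factors Hes6 and Neurod4. The members were the rows that carry these 9 symbols among the 19613 genes of the deposited values, and all 9 were found. Serum was tested on embryoid bodies (EBs) that hold spinal motor neurons and were made from HBG3 mouse embryonic stem cells, a single line with an HB9-eGFP reporter that marks motor neurons. The EBs were incubated for 24 h with 5% mouse serum, so each array reports a mixture of neurons, progenitors and other cells rather than sorted motor neurons. Carrier serum (29 arrays) came from males hemizygous for a human mutant SOD1 transgene, a model of amyotrophic lateral sclerosis (ALS), before symptoms. Non-carrier serum (30 arrays) came from littermates without the transgene, and the EBs themselves carried no SOD1 transgene in either group. The donors were on a mixed C57BL/6 and SJL background, and the labels give 9 weeks for 53 arrays and 10 weeks for 6. Nothing in the labels says whether arrays of a group came from separate mice, so p-values measure the spread between these arrays. The study used such cells as an indicator, to tell serum of carriers from that of non-carriers by gene expression and so detect disease before symptoms; here the 2 kinds of serum are compared in the Notch circuit.

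By the names or number ranges in their titles the arrays were sorted into 9 runs, each holding both kinds of serum, which are called motorneuron, HB9MNs, A, B, C, D, E, F and 10-week and hold between 4 and 11 arrays. All values below are log2 intensities of 1 gene. An array signal depends on the probes, so a gene is compared with itself across arrays and never with another gene. Medians over the genes of single arrays ranged from 151 to 183 in linear intensity. The mean of 5 motor neuron markers ranged over 0.42 between runs on the log2 scale, and for the same reason its level does not show what share of the cells were motor neurons. Slc18a3, another motor neuron marker, had no matching row.

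Notch signalling passes between neighbouring cells. A ligand such as Dll1 or Jag1 on one cell binds a Notch receptor on the next, the receptor is cut by ADAM proteases and gamma-secretase, and its intracellular part joins the DNA-binding protein RBPJ to switch on repressors such as Hes1 and Hes5. These repressors hold back the proneural bHLH factors, so that in the developing spinal cord Notch activity keeps progenitors dividing while cells that escape it become neurons. Dll3 differs from the other ligands in that it does not activate receptors on neighbouring cells, Hes6 opposes Hes1 and favours neuronal differentiation, and Neurod4 (also called Math3) drives cells towards a neuronal fate.

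No member passed the test for a change with carrier serum across the series. In a limma fit over all genes with the run as a block, 0 of the 9 members passed an adjusted p of 0.05, and 0 of 9 had an unadjusted p below it. Of all 19613 genes, 2.33% passed, 1.65% lower and 0.683% higher with carrier serum, and an unadjusted p below 0.05 was found for 20.69%. The estimates for the members were lower in 5 and higher in 4, with a median of -0.0071, beside a median of 0.016 over all genes. No 95% confidence interval of a member reached beyond 0.18 on the log2 scale in either direction.

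The estimates for both receptors were small. Notch1, the founding mammalian receptor of the pathway and the main one of neural progenitors, ran from 8.96 through a median of 9.78 to 10.13 with non-carrier serum. With carrier serum it ran from 9.17 through 9.77 to 10.12. The groups overlapped almost wholly, and the fitted change was -0.033 ± 0.024 (SE; limma adjusted p = 0.418), below 0 in 7 of 9 runs (95% confidence interval -0.082 to 0.015). Notch2, a second receptor of progenitors, ran from 7.70 through 8.52 to 9.58 with non-carrier serum and from 7.76 through 8.52 to 9.60 with carrier serum. Its change was -0.022 ± 0.030 (SE; limma adjusted p = 0.688), with 4 runs below 0 and 5 above. The difference of Notch2 was furthest from 0 in run C, where the 6 carrier arrays had a mean of 8.33 and the 5 non-carrier arrays 8.50 with overlap (difference -0.16, exact permutation p = 0.048, adjusted p = 0.771 over 81 tests of 9 members in 9 runs), and without run C the fitted change of Notch2 was 0.011. In run F the 3 carrier arrays of Notch2 lay below the 3 non-carrier arrays by 0.074, a split that an exact permutation test of 3 against 3 cannot place below p = 0.10 and that 33.2% of all genes showed in that run in either direction.

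The estimates for the ligands were small as well. Dll1, which activates Notch on neighbouring cells and is made by newborn neurons, ran from 7.97 through 8.42 to 8.88 with non-carrier serum and from 7.93 through 8.43 to 8.80 with carrier serum. Its change of -0.035 ± 0.023 (SE; limma adjusted p = 0.364) was below 0 in 7 of 9 runs. Dll3 ran from 8.25 through 8.46 to 8.67 with non-carrier serum and from 8.01 through 8.45 to 8.68 with carrier serum. The change of Dll3 was -0.028 ± 0.024 (SE; limma adjusted p = 0.492), and its carrier arrays lay wholly below the non-carrier arrays in the motorneuron run (difference -0.15) and in the HB9MNs run (difference -0.058), where the sera did not overlap for 4.40% and 48.9% of all genes. Jag1, the ligand of the Serrate type, ran from 7.44 through 7.86 to 8.38 with non-carrier serum and from 7.48 through 7.86 to 8.51 with carrier serum, and its change was 0.0032 ± 0.023 (SE; limma adjusted p = 0.947). No ligand separated the sera over the whole series.

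Among the downstream genes, Hes1 and Hes5 are the classical targets of the cleaved receptor. Hes1 ran from 7.39 through 7.89 to 8.48 with non-carrier serum and from 7.47 through 7.90 to 8.53 with carrier serum, a fitted change of 0.00073 ± 0.028 (SE; limma adjusted p = 0.992). Hes5 ran from 8.51 through 8.77 to 9.05 with non-carrier serum and from 8.26 through 8.78 to 9.08 with carrier serum, a change of -0.0071 ± 0.035 (SE; limma adjusted p = 0.920). Hes6 ran from 8.56 through 8.96 to 9.28 with non-carrier serum and from 8.52 through 8.95 to 9.27 with carrier serum, a change of 0.014 ± 0.034 (SE; limma adjusted p = 0.83). The lowest Hes5 and Hes6 values of the series were both carrier arrays of run E, while their medians differed between sera by less than the spread within runs. Hes5 in run A was the only downstream repressor whose sera did not overlap in a run, lower with carrier serum by 0.13 in 3 against 3 arrays, beside 16.7% of all genes without overlap in that run.

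Neurod4 had the largest estimate of the 9. It ran from 9.72 through 10.33 to 11.13 with non-carrier serum and from 9.61 through 10.48 to 11.09 with carrier serum. The change was 0.087 ± 0.045 (SE; 95% confidence interval -0.0032 to 0.18; limma adjusted p = 0.258), with 5 runs above 0 and 4 below. This estimate rested on run C, since without run C the change of Neurod4 was -0.0079 ± 0.041 (SE; limma adjusted p = 0.914).

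**Figure D1:**
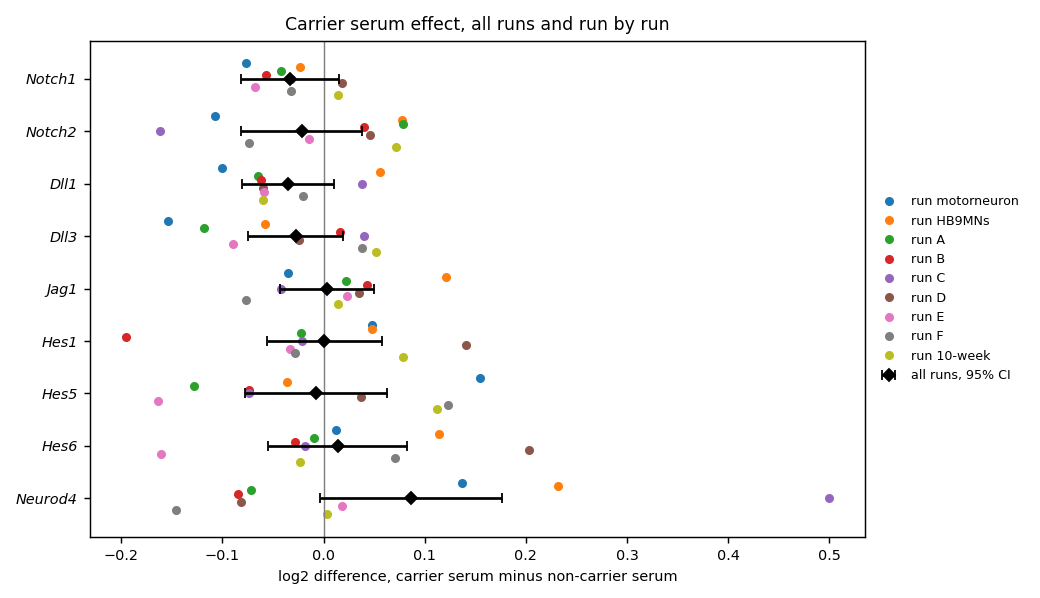
Difference between carrier and non-carrier serum for each of the 9 genes on the log2 scale (x axis). Black diamonds with bars are the limma estimates over all runs with 95% confidence intervals, and coloured points are the differences of group means within single runs; every interval includes 0, and the Neurod4 point of run C stands at 0.50, away from the other runs.

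In run C, every carrier array had more Neurod4 signal than every non-carrier array. The 5 non-carrier arrays lay between 9.80 and 10.13, with a mean of 10.00 ± 0.12 (SD, n = 5). The 6 carrier arrays lay between 10.29 and 10.62, with a mean of 10.50 ± 0.12 (SD, n = 6). The difference of 0.50 had an exact two-sided permutation p of 0.0022, the smallest that 6 against 5 arrays allow. Over the 81 tests of 9 members in 9 runs it was adjusted to 0.175, and 2 of the 81 had a p below 0.05 before adjustment. Groups did not overlap in run C for 0.724% of all genes. In limma on run C alone, 0% of genes passed the adjusted threshold (0 of 19613; 1100 with an unadjusted p below 0.05), and Neurod4 had an adjusted p of 0.295. With the 2 parts of run C as a block its difference was 0.51 (limma adjusted p = 0.307).

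The other runs did not repeat this size of difference. In the HB9MNs run the 2 carrier arrays lay above the 2 non-carrier arrays by 0.23, in run F the 3 carrier arrays lay below the 3 non-carrier arrays by 0.15, and in the other 6 runs the sera overlapped, with differences from -0.084 to 0.14. Sera without overlap were common over all genes in the HB9MNs run (48.9%) and in run F (33.2%). In runs B, D, E and 10-week, where no member was without overlap, that share was 10.5%, 17.8%, 8.09% and 18.1%. A limma F test of the run by serum terms passed for 0.127% of all genes (25 genes) and for none of the members. Neurod4 came closest, with F = 4.89, an unadjusted p of 2.29e-04 and an adjusted p of 0.0996, the 44th smallest p of all genes. Leaving out run E or the motorneuron run brought it past the threshold, with adjusted p values of 0.0255 and 0.0443, and leaving out run C moved it to 0.885. Calls over all genes moved as well, from 25 to 42 without run E, 54 without the motorneuron run and 0 without run C. For the other 8 members the adjusted p of the F test over all runs was 0.809 or higher.

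Between runs, by contrast, most of the circuit differed, and Notch2 differed most. A limma F test of the 8 run coefficients passed for 8 of 9 members, beside 94.0% of all genes, so the count alone sets the members apart from nothing. The share of a gene's variance held by the run was 62.5% in the median gene. It was 94.9% for Notch2, 93.0% for Jag1, 88.3% for Hes1, 88.2% for Notch1, 84.0% for Dll1, 78.4% for Neurod4, 56.8% for Dll3, 46.9% for Hes6 and 21.2% for Hes5. In a mixture of cells, fewer cells of a type and less RNA per cell cannot be told apart, and this holds for each difference between runs.

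**Figure D2:**
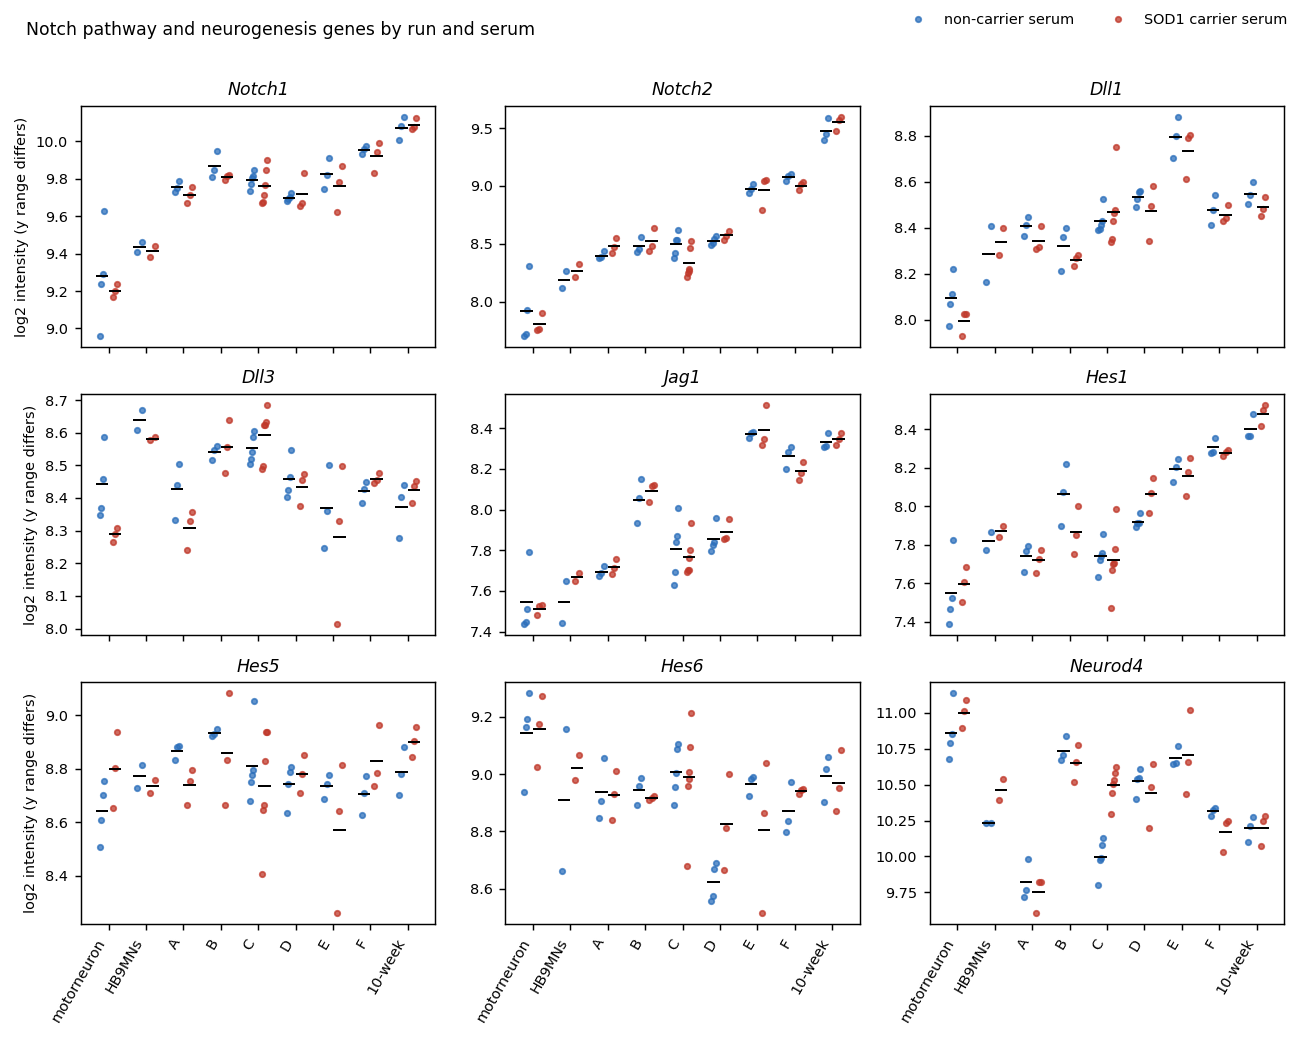
Log2 intensity of each of the 9 genes (y axis, range differs between panels) by run (x axis), with 1 point for each of the 59 arrays and black bars for the means of each serum in a run. Notch1, Notch2, Jag1 and Hes1 are lowest in the motorneuron run; Notch2, Jag1 and Hes1 are highest in runs E, F and 10-week, run means of Hes5 stay between 8.65 and 8.90, and the carrier arrays of Neurod4 stand above the non-carrier arrays in run C.

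Notch2 spanned 1.65 on the log2 scale between run means, a 3.14-fold range against an SD of 0.11 within run and serum. Its mean was 7.86 in the motorneuron run, 8.23 in HB9MNs, 8.42 in run C, 8.44 in A, 8.50 in B, 8.55 in D, 8.97 in E, 9.04 in F and 9.51 in the 10-week run. The 10-week run stood 0.47 above the next, while runs C, A, B and D followed each other by less than the SD. Notch1 spanned 0.84, from 9.24 in the motorneuron run to 10.08 in the 10-week run, and its middle runs lay close together, from 9.71 in D to 9.84 in B. Both receptors were lowest in the motorneuron run, second lowest in HB9MNs and highest in the 10-week run. The serum donors of the 10-week run were also the older ones, so run and donor age cannot be told apart there. Array titles of the motorneuron and HB9MNs runs name motor neurons, while those of the other runs name EBs. Run and any difference in cell preparation can therefore not be told apart either.

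Jag1 and Hes1 followed nearly the same order as Notch2. Jag1 went from 7.53 in the motorneuron run to 8.38 in run E, a span of 0.85, and its values in the 10-week run (8.34) and run F (8.23) came next. Hes1 spanned 0.87, from 7.57 in the motorneuron run to 8.44 in the 10-week run, and runs F (8.29) and E (8.18) came next. Dll1 had its highest mean in run E (8.76) and its lowest in the motorneuron run (8.04), a span of 0.72, and 6 of the 8 gaps between neighbouring runs were under its SD of 0.088 within run and serum. Each of these 5 genes was lowest in the motorneuron run.

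The remaining members took other orders. Neurod4 was highest in the motorneuron run (10.93) and lowest in run A (9.79), a span of 1.14 or 2.21-fold, with runs E and B both at 10.69. Hes6 was also highest in the motorneuron run (9.15) and lowest in run D (8.72), a span of 0.43 that was 0.28 after centring arrays on their medians. Dll3 spanned 0.29, from 8.61 in HB9MNs to 8.32 in run E. Hes5 spanned 0.24, from 8.90 in run B to 8.65 in run E, and all 8 gaps between neighbouring runs were smaller than its SD of 0.13 within run and serum. Hes5 was the member that did not pass (limma adjusted p = 0.130), and 5.57% of all genes had a smaller span; with arrays centred on their medians it passed (limma adjusted p = 0.0012) with a span of 0.32.

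Over the 9 run means, Notch2, Jag1, Hes1 and Notch1 moved together. Pearson's r was 0.95 between Notch2 and Hes1 (Spearman's rho 0.93), 0.91 between Jag1 and Hes1 (rho 0.88), 0.91 between Notch2 and Jag1 (rho 0.92), 0.89 between Notch1 and Notch2 (rho 0.85) and 0.83 between Notch1 and Jag1 (rho 0.85). These were the 5 of 36 pairs that passed an exact permutation test over 9 runs after adjustment over the pairs, with unadjusted p from 1.38e-04 to 0.0026 and adjusted p from 0.0040 to 0.019. For rho the adjusted p lay between 0.024 and 0.044. Without the 2 runs farthest from the median of the first gene, r was 0.90, 0.89, 0.92, 0.87 and 0.69 in the same order. Hes5 was in none of these pairs. The pairs share their arrays and the scaling of those arrays. How often other genes reach such r over the 9 runs was not computed. Since 94.0% of all genes differed between runs, the count alone does not set these members apart.

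The floor plate markers moved in the same direction as these genes. The floor plate is the ventral midline of the neural tube that secretes Sonic hedgehog, and the mean of its markers Shh and Foxa2 ranged over 2.69 between runs, from 7.01 in HB9MNs to 9.71 in the 10-week run, with 8.95 in F and 8.62 in E. Both markers passed the F test between runs, with 97.1% of the variance of Shh and 96.3% of that of Foxa2 held by the run. Over the 9 runs, this mean had r = 0.93 with Hes1 (rho 0.82), 0.93 with Notch2 (rho 0.88) and 0.90 with Jag1 (rho 0.83). In a family of 81 relations of 9 members with 9 marker lists, exact permutation p was 2.59e-04, 5.79e-04 and 6.92e-04 for these 3, each adjusted to 0.019. All 3 also passed after centring arrays on their medians and after quantile normalization, by r and by rho. Without the 2 runs farthest from the median of the markers, r was 0.82, 0.78 and 0.94. By rho on the values as deposited none of the 3 passed (exact permutation adjusted p from 0.125 to 0.145), and a part of cell composition in the run differences was not tested. For these relations and those below, how often other genes reach such r with a marker list was not computed. Since 94.0% of all genes differed between runs, these relations do not set the members apart.

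**Figure D3:**
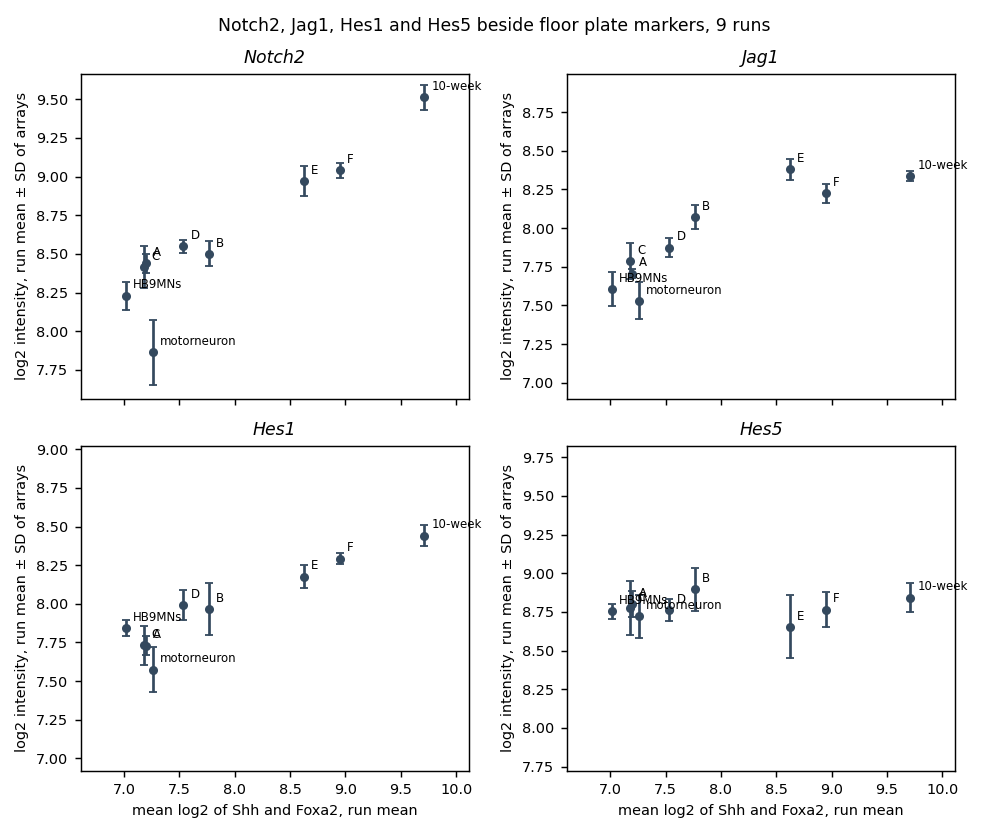
Run means of Notch2, Jag1, Hes1 and Hes5 (y axes, log2 intensity, bars are the SD of the arrays of a run) against the run mean of the floor plate markers Shh and Foxa2 (x axis, log2 intensity), 1 point for each of the 9 runs. Notch2, Jag1 and Hes1 are highest in runs E, F and 10-week, where the markers are highest, while run means of Hes5 lie between 8.65 and 8.90.

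Of the other marker lists, 4 relations passed the same test. Dll1 ran against the pluripotent markers (r = -0.92, rho -0.82, exact permutation p = 0.0020, adjusted p = 0.027), against the endoderm markers (r = -0.89, rho -0.77, exact permutation p = 0.0014, adjusted p = 0.027) and against the V2 interneuron markers Gata2, Gata3 and Foxn4 (r = -0.88, rho -0.95, exact permutation p = 0.0020, adjusted p = 0.027). The last was the one relation of the 81 that passed by rho (adjusted p = 0.029). Notch2 ran against the postmitotic neuron markers (r = -0.85, rho -0.77, exact permutation p = 0.0034, adjusted p = 0.040). Without the 2 runs farthest from the median of the markers, r was -0.62 for Dll1 with the pluripotent list, -0.67 with the endoderm list, -0.67 with the V2 interneuron list and -0.62 for Notch2. With arrays centred on their medians the relation of Dll1 with the endoderm list passed, while those of Dll1 with the pluripotent and V2 interneuron lists and of Notch2 with the postmitotic list did not (exact permutation adjusted p = 0.128, 0.168 and 0.604). After quantile normalization Dll1 with the endoderm list passed again (r = -0.85, exact permutation adjusted p = 0.047), while Dll1 had r = -0.23 with the pluripotent and -0.73 with the V2 interneuron list and Notch2 had -0.41 with the postmitotic list, none of which passed (exact permutation adjusted p = 0.82, 0.144 and 0.658). Under that setting the endothelium and blood markers passed with Notch2 and Hes1 (r = 0.85 for both, exact permutation adjusted p = 0.047 and 0.040). The motorneuron run held the highest mean of the pluripotent (6.07) and endoderm (6.58) markers. It also held the highest mean of the V2 interneuron (7.43) and glia (6.80) markers, though the glia mean of run A was 6.80 as well. Single markers of these lists differed. Gfap, Aqp4, S100b, Gata2 and Foxn4 were highest in the motorneuron run. Sox10, Pdgfra, Gata3 and the pluripotent marker Esrrb were highest in run A. Aldh1l1 was lowest in the motorneuron run (6.64, beside 7.79 in run A), and Esrrb was 5.99 there, beside 6.90 in run A. The pluripotent and endoderm lists were dim, with run means from 5.60 to 6.07 and from 5.88 to 6.58. Whether their levels track such cells was not tested. The mean of the 9 progenitor markers ranged over 0.25 between runs, but single markers moved in opposite directions. Sox2, a factor of neural progenitors, rose by 1.04 from its lowest mean, in the motorneuron run, to its highest, in the 10-week run, and Nes, an intermediate filament of progenitors, went from 8.13 in HB9MNs to 9.02 in run E. Pax6, a patterning factor of progenitors, went the other way, from 7.69 in the motorneuron run to 6.52 in the 10-week run. The 8 postmitotic neuron markers ranged over 0.26 as a mean and over 0.23 to 0.46 one by one, beside 3.50 for Shh and 2.19 for Foxa2.

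**Figure D4:**
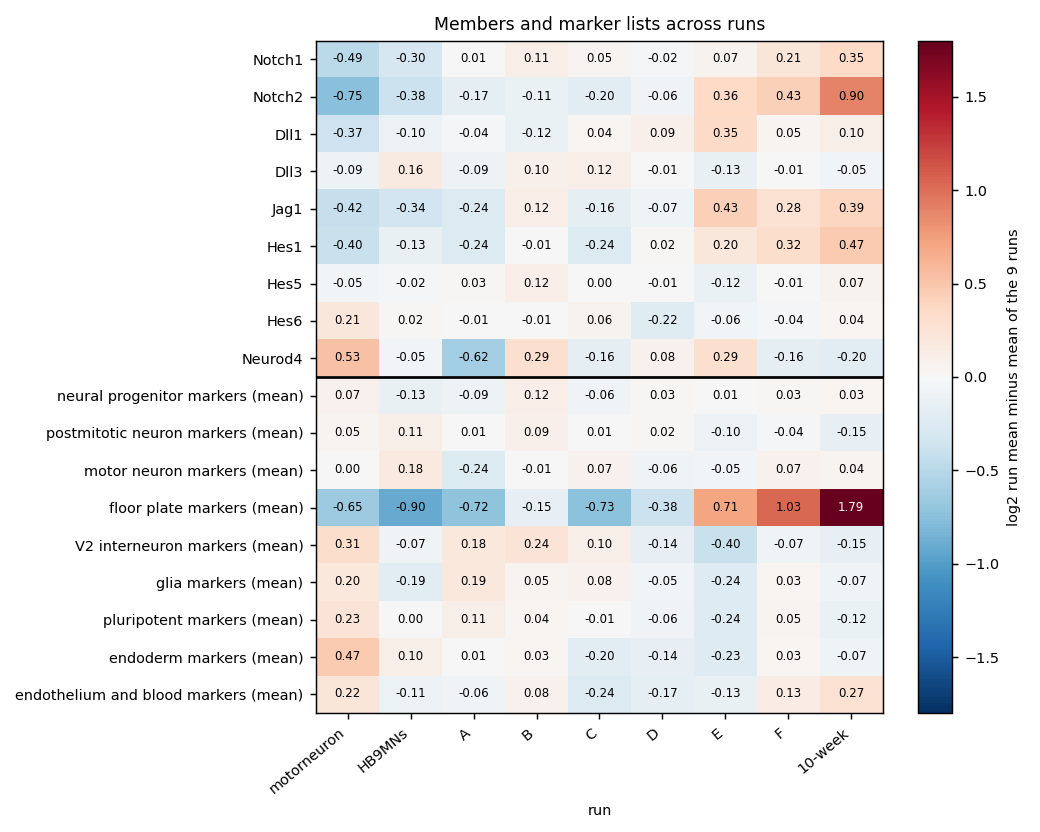
Run means of the 9 genes (upper rows) and of 9 marker lists (lower rows, mean over the markers), each minus its own mean over the 9 runs, on the log2 scale (colour and printed value); columns are runs. The strongest red in the Notch2, Jag1, Hes1 and floor plate rows falls in runs E, F and 10-week. Outside these runs Jag1 is at 0.12 in run B and Hes1 at 0.02 in run D. The Hes5 row holds values from -0.12 to 0.12.

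Sequence upstream of these genes was read from RefSeq promoter windows on GRCm38.p6, in which 8 of the 9 members were matched and Hes1 was not. The 250 bases before the start site were searched on both strands for the RBPJ core GTGGGAA, the E-box CANNTG bound by proneural factors, and the N-box CACNAG bound by Hes repressors. Overlapping matches of different motifs were counted for each motif, and a match is only a match of letters. The RBPJ core was in 5.42% of 32851 windows and occurred 2 or more times in 0.161%. Hes5 was the only member with this core, with 2 matches on opposite strands. The start site of its window is not the outer end of the annotated gene. The 2 matches are shown because Hes5, the textbook target of the cleaved receptor, varied least with the runs among the members in the values as deposited. After centring arrays on their medians, Hes6 spanned less than Hes5. Capitals mark the core, and the sequences read along the gene strand at chr4:154960687-154960713 and chr4:154960830-154960856 (plus strand).
Hes5, core on the opposite strand: ggcgagcgcgTTCCCACagcccggaca
Hes5, core on the gene strand: gccgccgagtGTGGGAAcggccgcggc

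Notch2 and Jag1 moved together between runs, and the windows before their starts hold no RBPJ core. An N-box was in 36.7% of all windows and an E-box in 66.2%. Notch2 had 1 N-box, Jag1 had 1 E-box, and neither had both. The 250 bases before the start are printed along the gene strand for Notch2 (chr3:98013288-98013537, plus strand) and Jag1 (chr2:137116521-137116770, minus strand), with the N-box of Notch2 and the E-box of Jag1 in capitals.
Notch2: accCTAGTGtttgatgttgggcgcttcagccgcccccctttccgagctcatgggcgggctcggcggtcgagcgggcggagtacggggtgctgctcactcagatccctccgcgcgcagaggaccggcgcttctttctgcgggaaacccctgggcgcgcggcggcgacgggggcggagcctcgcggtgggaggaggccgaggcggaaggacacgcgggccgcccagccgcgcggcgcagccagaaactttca
Jag1: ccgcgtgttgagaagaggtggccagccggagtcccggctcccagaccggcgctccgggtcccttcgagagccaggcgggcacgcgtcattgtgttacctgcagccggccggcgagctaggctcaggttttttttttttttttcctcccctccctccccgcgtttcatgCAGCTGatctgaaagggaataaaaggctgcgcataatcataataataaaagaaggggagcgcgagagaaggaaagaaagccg

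Neurod4 took a different course from Notch2 and Jag1. The window before its start (chr10:130280255-130280504, minus strand) holds 2 N-boxes, in capitals, and no E-box or RBPJ core; 8.18% of all windows hold 2 or more N-boxes.
Neurod4: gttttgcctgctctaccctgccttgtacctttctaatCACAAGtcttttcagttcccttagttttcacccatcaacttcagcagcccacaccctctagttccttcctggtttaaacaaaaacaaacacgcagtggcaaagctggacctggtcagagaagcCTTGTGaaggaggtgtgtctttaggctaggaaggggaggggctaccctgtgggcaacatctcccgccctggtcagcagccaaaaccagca
Among the other windows at the outer end of the gene, Dll1 and Hes6 each had 3 E-boxes, Dll3 had 2, and Notch1 had 1 N-box.

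Within runs, from array to array, fewer pairs passed, and 2 of them, Notch1 with Notch2 and Notch2 with Jag1, were also among the 5 that passed across runs. Values were centred within run and serum, and Pearson's r was tested with 100000 permutations of the arrays within run and serum, adjusted over the 36 pairs. Of the 36 pairs, 4 passed, all with positive r. Notch2 and Jag1 had r = 0.64 (rho 0.56, permutation p = 6.4e-04, adjusted p = 0.023) and Notch2 and Dll3 had r = 0.54 (rho 0.46, permutation p = 0.0014, adjusted p = 0.024). Dll3 and Hes5 had r = 0.56 (rho 0.44, permutation p = 0.0021, adjusted p = 0.025). The strongest, Notch1 and Notch2, had r = 0.65 (rho 0.43, permutation p = 0.0049, adjusted p = 0.044). Each of the 4 had the same sign in 8 of 9 runs. Many genes outside the members had a higher r. By r with Notch1, Notch2 ranked 336th among all genes. By r with Notch2, Jag1 ranked 250th and Dll3 597th, and by r with Dll3, Hes5 ranked 429th. The next pair, Notch1 and Dll3, had r = 0.47 (rho 0.33) and did not pass (permutation p = 0.012, adjusted p = 0.087).

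The pair of receptors rested on few arrays. The 4 non-carrier arrays of the motorneuron run held 57.9% of the spread of Notch1 within groups, as a share of its sum of squares, and 46.1% of that of Notch2. One of these arrays had 9.63 for Notch1 and 8.31 for Notch2, the highest value of that run for both. The same array was also the highest of that run for Dll1 (8.22), Dll3 (8.59), Jag1 (7.79) and Hes1 (7.82), but not for Hes5. Its high values were thus not particular to the receptors. Without the 2 arrays farthest from the median of the first gene, r was 0.40 for Notch1 and Notch2, 0.50 for Notch2 and Jag1, 0.54 for Notch2 and Dll3 and 0.39 for Dll3 and Hes5; the first and last then did not pass, with adjusted p of 0.127 and 0.0756. Without run C, Notch2 and Jag1 had r = 0.54 and did not pass (permutation adjusted p = 0.190). In run C alone their r was 0.87. Values were neither centred nor permuted within the 2 parts of run C. Jag1 lay from 7.63 to 7.70 in the first part and from 7.76 to 8.01 in the second. Whether an offset between these parts adds to r of this pair was not tested.

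Neurod4 was in all 5 of the lowest pairs but none of them passed. Its r was -0.37 with Dll3 (rho -0.11), -0.36 with Hes5 (rho -0.24), -0.35 with Hes6 (rho -0.29), -0.29 with Notch2 (rho -0.13) and -0.26 with Hes1 (rho -0.21), with permutation p from 0.060 to 0.159 and adjusted p from 0.235 to 0.336. The second principal component of all genes' centred values, which held 9.73% of their variance, had r = 0.63 with Neurod4, -0.59 with Dll3, -0.53 with Hes5 and -0.51 with Notch1. With the first 2 components removed, r of Neurod4 was 0.0055 with Dll3 and 0.12 with Hes5, and 6 pairs passed, 3 of them among the 4 above. Dll3 and Hes5 then did not pass (r = 0.40, permutation adjusted p = 0.063). Notch1 with Dll1 (r = 0.58, permutation adjusted p = 0.011), Notch1 with Jag1 (r = 0.56, permutation adjusted p = 0.030) and Dll3 with Jag1 (r = 0.46, permutation adjusted p = 0.0076) passed under that setting.

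**Figure D5:**
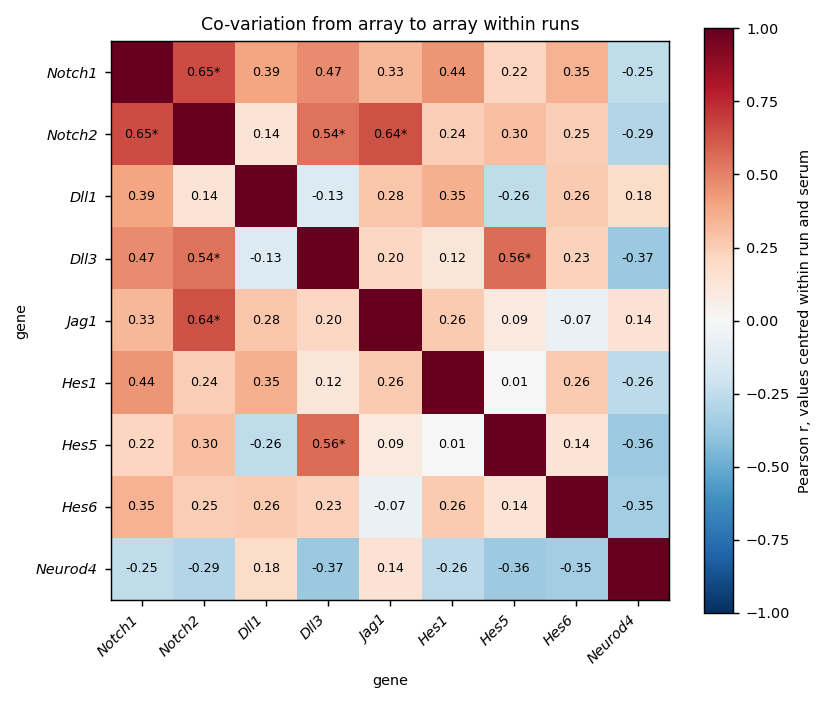
Pearson's r between each pair of the 9 genes over 59 arrays, after centring values within run and serum (colour and printed value), with an asterisk where the permutation p adjusted over 36 pairs was below 0.05. The receptors, Jag1, Dll3 and Hes5 make up the marked pairs, and the Neurod4 row is blue against the receptors, Dll3 and the Hes genes.

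The genes most like each member within runs, by the same r over 59 arrays, are given as a description. For Notch1 they were Sdk2 (0.91), Trak1 (0.89) and the seven-pass cadherin Celsr2 (0.88), and for Notch2 they were Flnc (0.86), the related cadherin Celsr1 (0.85) and Olfml3 (0.85). Jag1 went with the endocytic receptor Lrp2 (0.86), P4ha3 (0.84) and Jam2 (0.82). Neurod4 went with St18, a zinc finger factor of differentiating neurons (0.87), Tmem184c (0.80) and Gcc2 (0.79). Lower values were reached for Dll3 with Mknk2 (0.78), Slc25a10 (0.77) and Wdr18 (0.76), and for Hes6 with Pex6 (0.78), Ptdss2 (0.74) and Smcr7 (0.71). For Hes5 they were Cd320 (0.77), Tysnd1 (0.75) and Rhbdf1 (0.74), for Dll1 Nceh1, Atp11a and Csda (0.66, 0.63 and 0.59), and for Hes1 Trpc2, Gtpbp2 and Phyhip (0.66, 0.62 and 0.60). No member was among the 3 genes nearest another member. In run C, where Neurod4 separated the sera, St18 was higher with carrier serum by 0.22, with arrays from 8.25 to 8.66 without and from 8.57 to 8.87 with carrier serum, and the difference did not pass (limma adjusted p = 0.862).

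Beyond the 9 members, 48 of 50 listed genes of the wider Notch pathway were measured, and Rbpj and Psenen had no matching row. With carrier serum 1 of the 48 passed, lower, and none passed higher; 24 estimates were below and 24 above 0, with a median of 0.00026. Beside the 2.33% of all genes that passed, this count does not set the pathway apart. The gene that passed was Tle3, a Groucho-type corepressor recruited by Hes proteins, which fell from a mean of 10.15 to 10.05 (change -0.098 ± 0.025 SE, limma adjusted p = 0.0224), lower in 8 of 9 runs. Tle3 did not pass without run B, D, E, F or 10-week (limma adjusted p from 0.0574 to 0.0936), nor after quantile normalization (0.0614). Maml1, a coactivator of the receptor's intracellular part, was lower in 9 of 9 runs without passing (-0.069, limma adjusted p = 0.119).

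None of the 2 other receptors, 4 other ligands, 5 sugar modifiers, 9 cleavage genes, 12 turnover genes or 7 other targets passed. Dtx3, an E3 ligase of the Deltex family, was lower in 9 of 9 runs and missed the threshold (-0.11 ± 0.034 SE, limma adjusted p = 0.0616). Numb, an inhibitor of Notch that is shared out unequally in dividing cells, was lower in 9 of 9 runs as well (-0.059, limma adjusted p = 0.227), and Dtx1 gave 0.017. The non-canonical ligand Dlk1 gave -0.072 (limma adjusted p = 0.120), Dll4 gave 0.042 and Dlk2 0.042, and the receptors Notch3 and Notch4 gave 0.0029 and 0.033. Of the gamma-secretase genes, Aph1a gave -0.067 and Ncstn -0.034, while the protease Adam10 gave 0.044, with limma adjusted p of 0.134, 0.193 and 0.189. Among targets, Hey1 gave -0.061, Hey2 -0.079 and Hes2 0.091, with limma adjusted p from 0.168 to 0.224, so that targets pointed in both directions. All 5 sugar modifiers, which tune the binding of ligands, had estimates from -0.013 to -0.00022, with Rfng, Mfng and Lfng at -0.013, -0.0064 and -0.0038.

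Of the 8 proneural factors none passed, with 4 estimates on each side of 0. Neurog2 (-0.086, limma adjusted p = 0.112) and Neurog1 (-0.10, limma adjusted p = 0.193), which start neurogenesis in the ventral cord, were each lower in 8 of 9 runs, and Atoh1 gave 0.11 (limma adjusted p = 0.202). Of 14 neuronal commitment genes, Gadd45g, a stress and differentiation gene of newborn neurons, fell from a mean of 7.82 to 7.70 (-0.12 ± 0.035 SE, limma adjusted p = 0.0457), lower in 7 of 9 runs. Of 8 markers of postmitotic neurons, the synaptic protein gene Snap25 rose by 0.074 ± 0.018 (SE; limma adjusted p = 0.0166) and the microtubule regulator gene Stmn2 rose by 0.061 ± 0.017 (SE; limma adjusted p = 0.040), each higher in 8 of 9 runs, while Dcx gave 0.042 (limma adjusted p = 0.158). The other 5 markers gave -0.028 for Tubb3, -0.019 for Gap43, -0.011 for Elavl3, 0.014 for Elavl4 and 0.00016 for Map2, and the median of the 8 was 0.0072; Gap43 was lower in 9 of 9 runs. Over these and the marker lists of other cell types, 4 listed genes had no matching row, and of the others, the wider Notch pathway included, 2 passed lower and 2 higher, beside 1.65% and 0.683% of all genes. All of these calls were close to the threshold. Gadd45g did not pass without run A, B, D, E, F or 10-week (limma adjusted p from 0.087 to 0.214), and Stmn2 did not without the motorneuron run or run A, B, D, E or 10-week (0.0649 to 0.123). Snap25 did not pass without run A, B or 10-week (limma adjusted p from 0.0589 to 0.0735), and with arrays centred on their medians neither Snap25 (0.0768) nor Stmn2 (0.153) passed.

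No marker list of another cell type held a gene that passed, so values are given beside the members. The progenitor markers gave a median of 0.0034, with Olig2 at -0.085 (limma adjusted p = 0.0936), Pax6 at -0.045 and Msi1 at -0.032. The motor neuron markers gave a median of -0.023, with Lhx3 at -0.086, Isl1 at 0.053 and Isl2 at 0.094, and limma adjusted p of 0.105, 0.114 and 0.195. The floor plate markers Shh and Foxa2 gave 0.11 and 0.051, each with 6 of 9 runs above 0 and none past the threshold (smallest limma adjusted p = 0.193). The 5 endoderm markers, led by Gata4 (0.085), Sox17 (0.070) and Ttr (0.051), and the 5 endothelium and blood markers, led by Hbb-b1 (0.16), Pecam1 (0.070) and Cdh5 (0.069), all had estimates above 0. Of all genes, 11984 of 19613 had an estimate above 0. Both lists were dim, with run means from 5.88 to 6.58 and from 5.41 to 5.92. The pluripotent list gave a median of 0.010 with Nanog at 0.11, Pou5f1 at 0.12 and Esrrb at -0.039, the V2 interneuron list 0.047 with Foxn4 at 0.047, Gata2 at 0.063 and Gata3 at 0.021, and the glia list 0.010 with Aqp4 at 0.065, Gfap at 0.033 and Sox10 at -0.022. Their part in the values of the members was not tested.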

How the data were processed

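Total RNA of EBs was hybridised to Affymetrix mouse exon arrays. Per the study's methods, the authors made gene values with RMA, normalizing all arrays together, averaged the exons of a gene and removed outlier arrays by Grubbs' test; per the labels the tools were RMA and Affymetrix Expression Console. What the authors deposited are linear intensities for 19613 gene symbols on 59 arrays, without the authors' later batch correction on 4 motor neuron genes. The genome build is not given in the sources used here, and the number of arrays limits the precision. In 1220 symbols a prefix or dot had replaced other characters; these were matched after undoing that. RMA shrinks differences of dim probes, and exon averaging hides changes of single isoforms.

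Values were log2 transformed with a pseudocount of 0 and no filter, and a linear model was fitted to every gene in limma (version 3.58.1; R 4.3.3). P-values were two-sided, moderated by eBayes and adjusted by Benjamini-Hochberg across the array, with 0.05 as the threshold. Runs were read from array titles. Serum was tested with the run as a block, runs with serum in the model, and run by serum terms by an F test. Run C is parted into 2 by the order of the sample list, since it holds more arrays than the study assayed together. The fits and permutation tests were tested on simulated data. Correlations used permutations of arrays within run and serum, whose smallest p is 1e-05, or all 362880 orders of the 9 runs.

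The members and the 18 gene lists were chosen with earlier results of these data known, and some genes are not reported here and were left out of the lists. Named genes were the members, the 3 genes most like each, the 10 extreme pairs, and of each list the genes past the threshold or the 3 with the smallest p. The correlations across runs and the fits of run C alone were added after seeing the data. Alternatives covered the block, normalization, filter, pseudocount, weights, the variance model and runs left out.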

Additional observations from a re-analysis of the deposited data

Results flagged for a closer look

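In run C, 1 of the 6 carrier arrays had a Dll1 value of 8.75 on the log2 scale, apart from the next highest at 8.48. This gap was 0.664 of the range of the group, beyond the critical value of Dixon's test. It was the only such array among 36 groups of 4 to 6 arrays over the 9 genes, and chance gives about 1 in 20.

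The difference of Neurod4 between sera ran in opposite directions in different runs without overlap. It was higher with carrier serum by 0.23 in the HB9MNs run and by 0.50 in run C, and lower in run F, where carrier minus non-carrier was -0.15. The run by serum test gave a limma adjusted p of 0.0996, so that a difference between runs did not pass. Without overlap in either direction were 48.9% of all genes in the HB9MNs run, 0.724% in run C and 33.2% in run F.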

How the results depend on the processing

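No alternative made a member pass for the serum change, while calls over all genes ranged from 0 without a block to 6126 (31.2%) with the 4 motor neuron genes as covariates; 2803 passed with array weights, 1601 (8.16%) without run C and 0.54% without run D. Several estimates changed sign without passing. With the 4 motor neuron genes as covariates, Notch1 was 0.013, Notch2 0.032, Dll3 0.0044, Hes5 0.065 and Neurod4 -0.039. Hes1 was -0.0023 with run C parted, -0.0066 with arrays centred on their median and -0.0017 with array weights. Jag1 was -0.0041 centred, Hes5 was 0.0086 after quantile normalization and 0.012 with array weights, and Notch2 was 0.0068 with array weights. In runs E and F alone, Jag1 was -0.027, Hes1 -0.031, Hes6 -0.045 and Neurod4 -0.064. With each run left out in turn, Hes1 ranged from -0.018 to 0.023, Hes5 from -0.029 to 0.011, Hes6 from -0.011 to 0.034, Jag1 from -0.0055 to 0.014, Notch2 from -0.033 to 0.011 and Neurod4 from -0.0079 to 0.11. The cause was not tested. The calls of Tle3, Gadd45g, Snap25 and Stmn2 kept their direction under every alternative run, and each was lost under several. The replicate block, by number within the motorneuron, HB9MNs and 10-week runs, called 513 genes and 0 members, with Hes1 at -0.0057 and Neurod4 at 0.095. Deviations of same-numbered arrays had r above 0.1 in 1 of 8 pairs (r from -0.13 to 0.33). The 2 HB9MNs pairs hold the same value by construction, with 2 arrays in each group. Paired samples need not deviate together, so this check cannot tell whether the numbers pair samples. Runs left out one at a time gave 0 to 1 members for the run by serum test, beside 0 to 54 of all genes. They gave a limma F test adjusted p of 0.025 to 0.89 for Neurod4, and 1 to 5 member pairs within runs. Removing 2 components turned r of Neurod4 to 0.0055 with Dll3 and 0.12 with Hes5, and 6 pairs passed. Relations with marker lists numbered 4 with arrays centred and 1 by Spearman's rho, against 7.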
